A study of Mus musculus with 30 samples.

Results

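Gene expression in the dorsal pancreatic bud of the mouse (NMRI strain) at embryonic day 14.5 (e14.5) was compared with that at e13.5, on 12 of the 30 arrays of a series that followed the organ day by day from e12.5 to e16.5. The arrays were the Affymetrix MG-U74 version 2 set of 3 chips (A, B and C), with 2 arrays per stage and chip, and each chip was compared on its own. The animals were untreated and carried no named allele, and the groups differ by stage only. Dorsal buds were dissected from the embryos and pooled by litter, and the ventral bud was not taken. Both arrays of a stage are separate labelling reactions of RNA from 1 pool; the number of embryos or litters in that pool is not given. The p-values therefore measure the spread between labelling reactions, and the stage and its pool cannot be told apart. The RNA came from whole buds, in which fewer cells of a type and less RNA per cell cannot be told apart.

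In this window the dorsal bud passes from a branching epithelium of multipotent tip cells into the phase in which most acinar and beta cells appear. Tip cells that keep the transcription factor Ptf1a become acinar cells, which make and store the digestive enzymes, while trunk cells give rise to duct cells and, through a transient state marked by Neurog3, to the hormone cells of the islets. The surrounding mesenchyme supplies growth factors and matrix for the epithelium and itself thins out relative to it as the organ grows.

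Expression is given as RMA log2 values, in which a difference of 1 is a 2-fold difference. The values carry no detection calls, so the background level is unknown, and a level is set only against the same probe set at another stage. Medians over all probe sets of an array lay between 5.75 and 5.76 on chip A, 5.28 and 5.31 on chip B, and 4.01 and 4.02 on chip C over the 4 arrays of e13.5 and e14.5. The arrays of the 2 labelling reactions correlated at 0.997 to 0.998 across probe sets at e13.5 and e14.5 on every chip, and no probe set differed 2-fold between them. The tissue was checked against its markers. At e14.5, carboxypeptidase A1 (Cpa1) was the brightest probe set of chip C at 12.65 ± 0.02 (SD, n = 2 labelling reactions), and Ptf1a, Neurog3 and Gcg were at percentiles 97.3, 97.1 and 99.99 of that chip. Pdx1, the factor that marks all pancreatic epithelium, lay at percentile 58.2 of chip A. These places among other probes describe the signal only, since probes differ in brightness and no background is known.

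Of 36701 probe sets, 39 were higher at e14.5 than at e13.5 (0.106%) and 9 were lower (0.0245%), where a call needed a limma adjusted p below 0.05 together with a 2-fold or larger difference. The values of the stages overlapped in none of the 48. This follows from the 2-fold minimum, since no probe set differed 2-fold between the labelling reactions of a stage. Of the 39 higher probe sets, 30 lay on chip A, 27 had a single gene symbol, 4 had several and 8 had none. The 9 lower probe sets held 7 named genes. Where a gene had several probe sets, the brightest of them over the 10 arrays of a chip stood for it, and by this rule 24 of 15964 genes were higher (0.15%) and 4 were lower (0.0251%). With a minimum of 1.5-fold, 73 genes were higher (0.457%) and 55 lower (0.345%). Of these 128 genes 65 had over 1 probe set. Another probe set was called the same way in 14 of the 65, and 28 had a further probe set, brighter than its chip's median, that was not called. By the 2-fold rule, 13 of the 28 called genes had over 1 probe set. Another probe set was called the same way by that rule in 0 of the 13, and 9 had an uncalled probe set brighter than its chip's median. Below, rose and fell are used of genes that passed one of these rules, and the 2-fold rule is named where it was met.

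**Figure D1:**
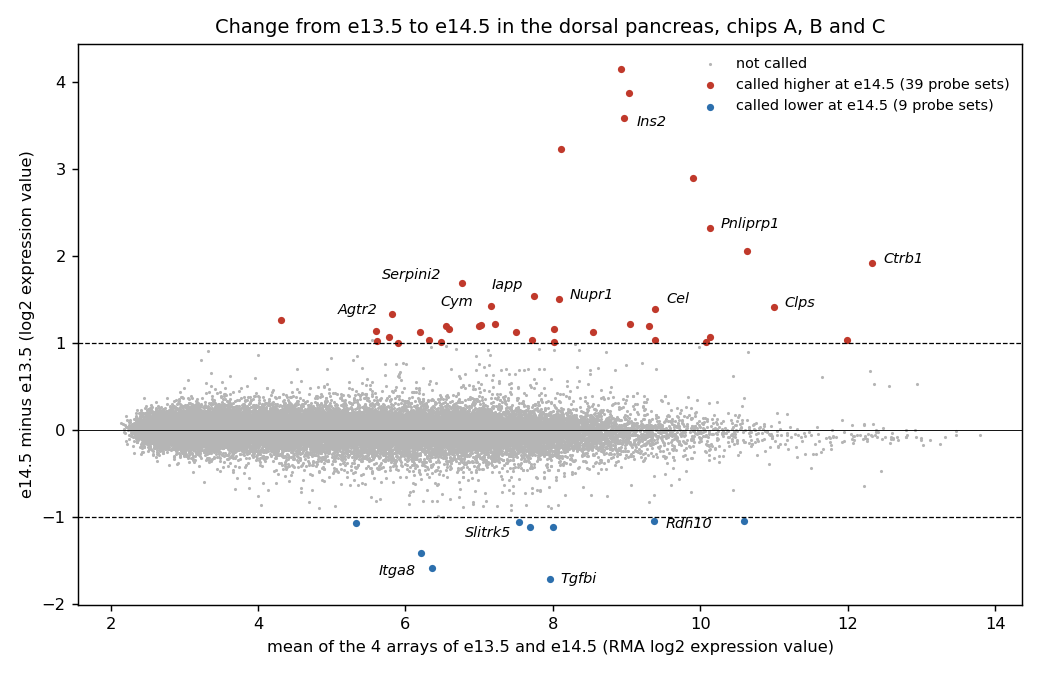
Each point is a probe set of chips A, B or C, with the mean RMA log2 expression value of the 4 arrays of e13.5 and e14.5 on the horizontal axis and the log2 difference e14.5 minus e13.5 on the vertical axis. Dashed lines mark 2-fold, and the 39 probe sets called higher (red) reach further from 0 than the 9 called lower (blue): Ins2 lies at 3.58 and Tgfbi at -1.72.

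The 24 genes that rose at least 2-fold were led by 11 genes of acinar cells and 2 islet hormones. The 12 with the largest rises were Ins2, Pnliprp1, Ctrb1, Serpini2, Iapp, Nupr1, Cym, Clps, Cel, Agtr2, Dhx34 and Tmem97, and the other 12 were AI506816, Cela1, Ggh, Cfi, Cckar, Prss2, Cela3b, Ell2, Gstm1, Serpina6, Ctrl and Mt1. The 4 that fell at least 2-fold were Tgfbi, Itga8, Slitrk5 and Rdh10.

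Acinar genes are bound through their promoters by the PTF1 complex, in which Ptf1a with its E protein partner reads an E-box and Rbpj or Rbpjl reads a second, TC-rich element beside it. Promoters of 6 acinar genes that rose 2-fold are therefore shown: the 3 that held letters of both elements and 3 of the 6 that held letters of 1. They are RefSeq sequences of GRCm38.p6, read 5′ to 3′ along the gene from position -200 to position -31 relative to the annotated start. Capitals mark CACCTG or its reverse complement CAGGTG, and TTCCCA or its reverse complement TGGGAA. The stretches are Cel at chr2:28563434-28563603 (minus strand), Prss2 at chr6:41521576-41521745 (plus), Ctrl at chr8:105933893-105934062 (minus), Serpini2 at chr3:75270109-75270278 (minus), Cela3b at chr4:137430551-137430720 (minus) and Pnliprp1 at chr19:58728687-58728856 (plus).
Cel: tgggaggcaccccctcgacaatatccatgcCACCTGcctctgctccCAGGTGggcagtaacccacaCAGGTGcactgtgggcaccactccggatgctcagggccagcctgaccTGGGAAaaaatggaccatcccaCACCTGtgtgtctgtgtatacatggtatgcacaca
Prss2: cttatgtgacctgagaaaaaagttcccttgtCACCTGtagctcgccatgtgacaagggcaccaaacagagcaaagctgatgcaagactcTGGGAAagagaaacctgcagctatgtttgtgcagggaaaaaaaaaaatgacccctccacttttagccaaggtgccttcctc
Ctrl: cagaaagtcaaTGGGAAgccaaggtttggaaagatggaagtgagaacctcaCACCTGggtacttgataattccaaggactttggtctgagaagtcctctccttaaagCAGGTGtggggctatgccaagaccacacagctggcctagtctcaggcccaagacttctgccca
Serpini2: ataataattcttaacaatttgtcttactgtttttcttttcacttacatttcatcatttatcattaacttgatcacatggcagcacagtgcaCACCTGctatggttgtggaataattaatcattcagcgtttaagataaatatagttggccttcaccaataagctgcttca
Cela3b: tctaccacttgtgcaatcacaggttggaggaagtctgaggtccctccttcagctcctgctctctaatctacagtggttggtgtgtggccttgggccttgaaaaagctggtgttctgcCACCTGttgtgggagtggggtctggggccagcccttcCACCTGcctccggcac
Pnliprp1: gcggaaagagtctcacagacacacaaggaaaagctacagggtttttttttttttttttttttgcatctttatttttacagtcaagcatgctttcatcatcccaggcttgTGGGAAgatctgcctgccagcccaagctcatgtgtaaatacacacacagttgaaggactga
Cel, Prss2 and Ctrl held letters of both kinds, Serpini2 and Cela3b only the E-box, and Pnliprp1 only the second element. Of those not printed, Cela1 held only the E-box, and Ctrb1 and Nupr1 only the second element. Of the 11 acinar genes called at 2-fold, 9 had a promoter window (250 bases before the start were searched, on both strands). CACCTG lay in 6 of the 9, TTCCCA in 6 and both in 3. In all 32851 RefSeq windows of the same length the shares were 17.2% for CACCTG, 21.6% for TTCCCA and 3.91% for both. A match of letters is a description of the sequence, and binding was not measured. Cel had 4 E-box matches, starting at positions -170, -154, -134 and -65 from the start of the gene, and its TGGGAA match began at position -87. In Prss2 the E-box match began at -169 and the TGGGAA match at -111. In Ctrl the E-box matches began at -149 and -93 and the TGGGAA match at -189. Whether the 2 kinds lay close enough to act as a pair was not tested.

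Digestive enzymes were the list with the largest shift. Of 19 enzyme genes measured, 8 rose at least 2-fold, 11 rose at least 1.5-fold and none fell, with a median change of 0.71, against 0.00 over all genes. The mean level over the list was 6.88 on both arrays of e13.5 and 7.64 and 7.61 on those of e14.5. The largest rise was that of Pnliprp1, pancreatic lipase-related protein 1 (chromosome 19, 58728887 to 58744169, GRCm38.p6). Its values were 8.999 and 8.93 at e13.5 and 11.32 and 11.25 at e14.5, a change of 2.32 ± 0.086 (SE), or 5.01-fold, with a limma adjusted p of 6.19e-08. As in every 2-fold rise, both e14.5 arrays lay above both e13.5 arrays. The mean of both Pnliprp1 probe sets changed by 1.15. Ctrb1, chymotrypsinogen B (chromosome 8, 111686510 to 111691010), read 11.36 and 11.39 at e13.5 and 13.29 on both arrays of e14.5. It rose by 1.92 ± 0.059 (SE), or 3.78-fold (limma adjusted p = 8.31e-09). Ctrb1 was already at percentile 99.3 of its chip at e13.5 and the rise brought it to percentile 99.98.

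Colipase (Clps), the cofactor of pancreatic lipase, read 10.29 and 10.30 at e13.5 and 11.68 and 11.72 at e14.5, a rise of 1.41. Carboxyl ester lipase (Cel) read 8.70 and 8.68 at e13.5 and 10.10 and 10.07 at e14.5, a rise of 1.39. The lipid digestion genes Pnliprp1, Clps and Cel thus had 3 of the 4 largest rises of the list. Pnliprp2 and Pla2g1b, also of lipid digestion, did not pass 1.5-fold. Among the proteases, the elastase Cela1 rose by 1.19 (8.75 and 8.67 to 9.89 and 9.91), and the trypsinogen Prss2 by 1.13 (6.92 and 6.96 to 8.07 and 8.06). Cela3b, a further elastase, rose by 1.12 (5.79 and 5.47 to 6.78 and 6.73), and the chymotrypsin-like Ctrl by 1.01 (7.41 and 7.61 to 8.54 and 8.50). As in every 2-fold call, the e13.5 and e14.5 arrays did not overlap in any of these 6 genes.

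The remaining enzymes changed less. Amy1, an amylase, rose by 0.81 but from 2.83 to 3.64, at percentile 2.17 of chip A at e13.5. Carboxypeptidase B (Cpb1) rose by 0.71, from 4.999 and 5.12 to 5.75 and 5.78, and carboxypeptidase A1 (Cpa1), which also marks the multipotent tip cells, by 0.68, from 11.91 and 12.02 to 12.66 and 12.63. Cela2a differed by 0.48 (limma adjusted p = 0.000916), short of 1.5-fold. The other 7 enzymes, Amy2a5, Klk1, Dnase1, Pla2g1b, Pnliprp2, Rnase1 and Ctrc, differed by -0.25 to 0.07 with adjusted p-values of 0.259 or more. On this day, then, 8 of the 19 enzymes did not pass 1.5-fold. Probe sets of Ctrb1 and Ctrl (suffix r) and of Prss2 (suffix f) are of designs that can bind related transcripts. Their values may therefore include other members of their families. The same holds for other probe sets of suffix f, among them the brightest of Ero1b, Pdia2 and Hbb-y and a further Ptf1a probe set.

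**Figure D2:**
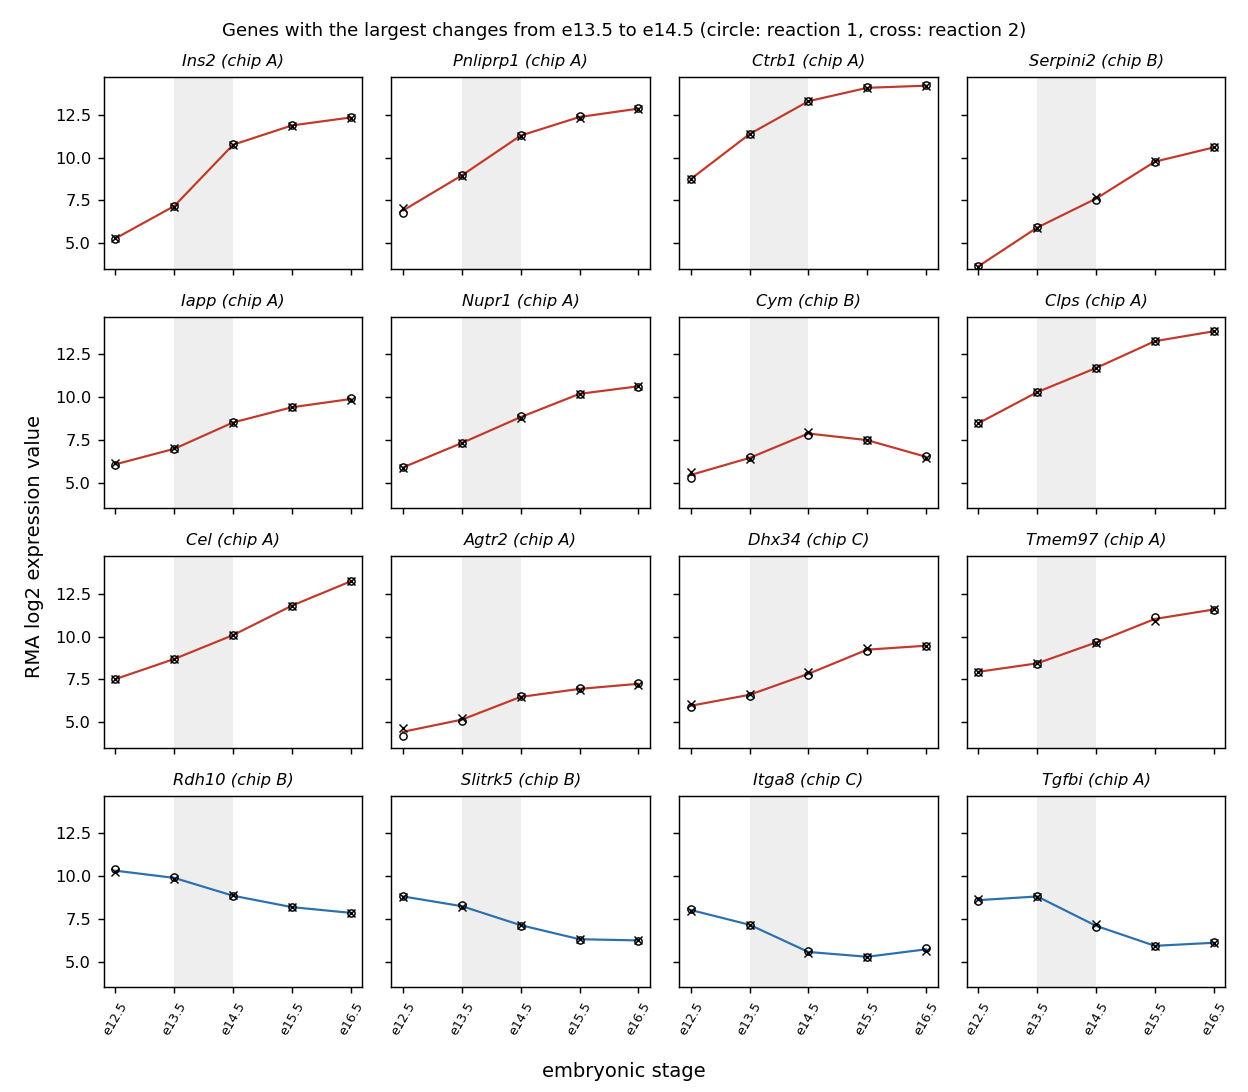
Each panel plots the RMA log2 expression value of a gene against embryonic stage, with a circle for labelling reaction 1, a cross for reaction 2 and a line through the stage means; the shaded band spans e13.5 to e14.5. The 12 genes with the largest rises (red) and the 4 that fell 2-fold (blue) are shown: Ins2 goes from 7.17 to 10.75 within the band, Cym is highest at e14.5 at 7.88, and Tgfbi is level up to e13.5 at 8.81 before it falls to 7.10.

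Products of acinar cells other than enzymes followed in part. Of 25 measured, 3 rose at least 2-fold, 7 at least 1.5-fold and none fell, with a median change of 0.19. Serpini2, a serpin made by acinar cells, read 5.95 and 5.88 at e13.5 and 7.51 and 7.71 at e14.5. It rose by 1.69 ± 0.076 (SE), or 3.23-fold (limma adjusted p = 4.56e-09). Nupr1, a small chromatin-associated stress protein, read 7.32 on both arrays of e13.5 and 8.88 and 8.79 at e14.5, a rise of 1.51. Cckar, the receptor through which cholecystokinin triggers enzyme release, read 7.44 on both arrays of e13.5 and 8.63 and 8.56 at e14.5, a rise of 1.16. Clusterin (Clu) rose by 0.99, the zymogen granule GTPase Rab3d by 0.93, the prolyl isomerase Fkbp11 of the endoplasmic reticulum by 0.76 (0.46 on a further probe set) and Reg1 by 0.69. The granule proteins Sycn, Zg16 and Gp2 did not pass, with differences of 0.22, 0.19 and -0.03 and adjusted p-values of 0.215, 0.229 and 0.94.

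Of 11 transcription factors of acinar cells, 2 rose and none fell, and the list's median change was 0.20. Bhlha15 (Mist1), which drives the secretory architecture of acinar cells, read 6.67 and 6.38 at e13.5 and 7.37 and 7.38 at e14.5, a rise of 0.85 ± 0.083 (SE; limma adjusted p = 2.37e-05). Ptf1a read 7.38 and 7.52 at e13.5 and 7.96 and 8.11 at e14.5, a rise of 0.59 ± 0.088 (SE; limma adjusted p = 0.00258). A second Ptf1a probe set rose by 1.02, and the remaining 2, both below the chip median, differed by -0.06 each. The mean of its 4 probe sets changed by 0.37, short of 1.5-fold. Nr5a2, which acts with Ptf1a on enzyme genes, differed by 0.27 (adjusted p = 0.0379). Rbpjl, the acinar form of the PTF1 partner, differed by 0.09 and Rbpj, which it replaces, by -0.08, with adjusted p-values of 0.618 and 0.716. Gata4 differed by 0.31 on its brightest probe set (adjusted p = 0.0517) and passed the 2-fold rule on another.

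The machinery of the secretory pathway moved little. Of 41 genes of endoplasmic reticulum folding and stress response, 33 had a positive difference, 2 rose and none passed 2-fold, with a median change of 0.12. Over all 15964 genes, 8040 differences were positive. Those 2 were Edem2, which routes misfolded glycoproteins to degradation, at 0.92 (7.56 and 7.55 to 8.46 and 8.48; -0.09 on its other probe set, and 0.42 for the mean of both, short of 1.5-fold), and the oxidase Ero1b at 0.64 (5.54 and 5.63 to 6.30 and 6.16). The chaperone Hspa5 (BiP) differed by -0.01 and the stress factor Ddit3 by -0.17 (adjusted p = 0.973 and 0.324). None of 30 genes of translocation and glycosylation and none of 39 of Golgi and coat traffic passed 1.5-fold, and the largest differences were 0.41 for Ssr1, a subunit of the translocon-associated complex, and 0.56 for Tmed3, a cargo receptor. In the list of amino acid supply and tRNA charging, 4 of 44 rose and none fell: Cbs by 0.97, Asns by 0.90, Psat1 by 0.69 and Gamt by 0.64. Cbs and Psat1 act in cysteine and serine synthesis, Asns makes asparagine and Gamt creatine, and no tRNA synthetase of the list passed. Further probe sets of Asns (0.03 and -0.12) and Gamt (0.17) did not pass.

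**Figure D3:**
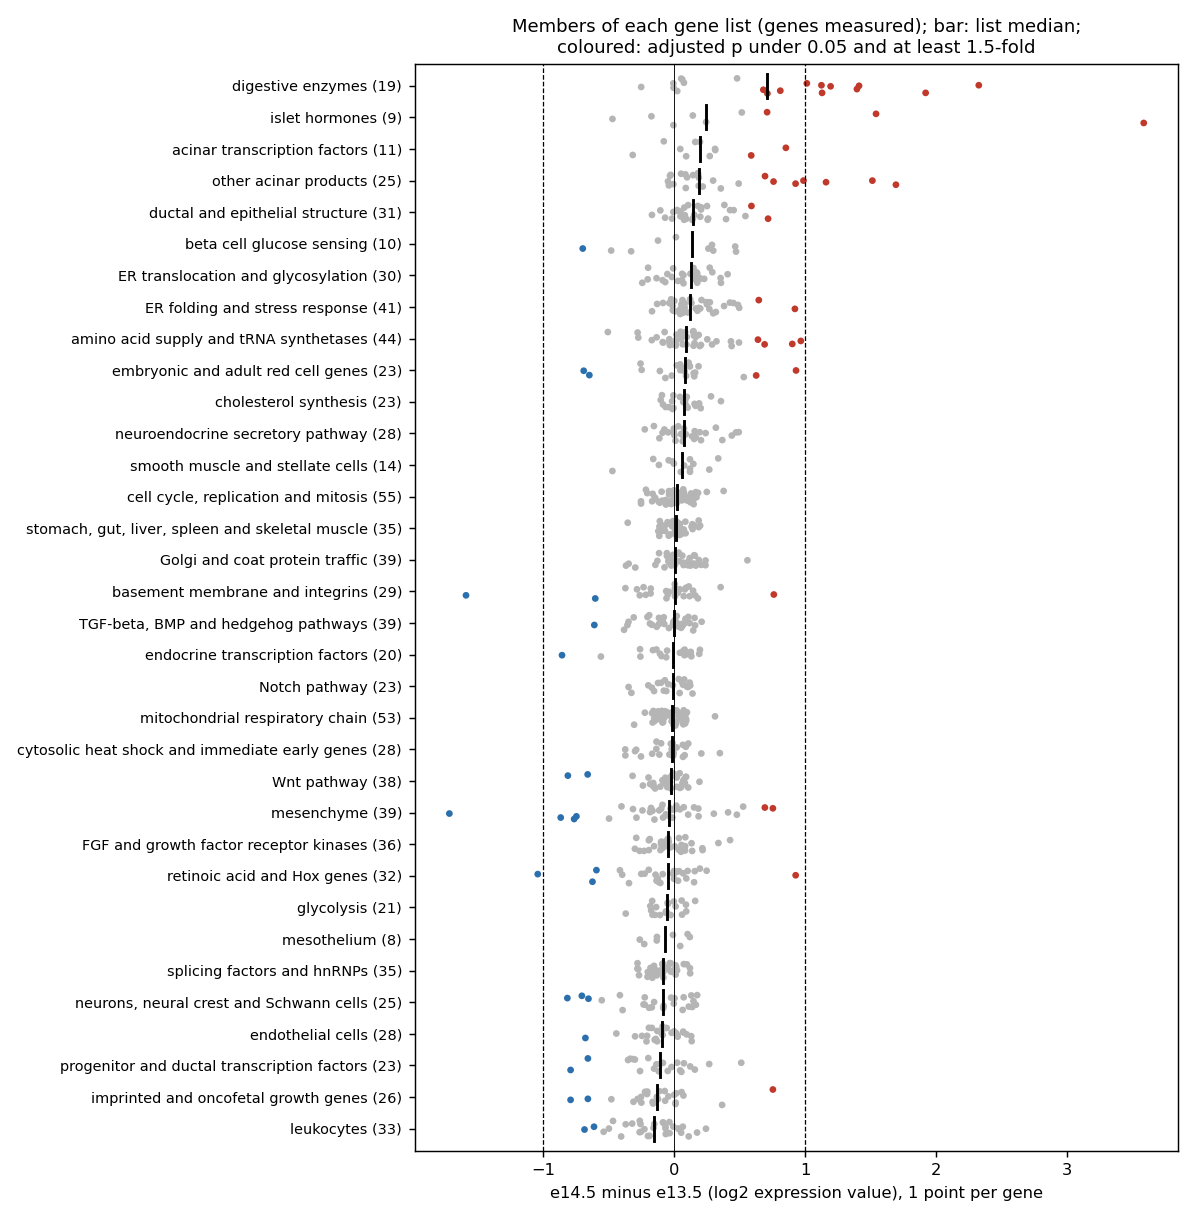
Each row is 1 of 34 gene lists with the number of genes measured, and each point is a gene placed by its log2 difference e14.5 minus e13.5; black bars are list medians, and coloured points passed an adjusted p under 0.05 with at least 1.5-fold (red higher, blue lower). Digestive enzymes have the highest median, 0.71, and islet hormones the next, 0.24, while mesenchyme holds 2 genes that rose and 4 that fell around a median of -0.04.

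Of 9 islet hormones measured, 2 rose at least 2-fold, 3 at least 1.5-fold and none fell by these rules, and both 2-fold rises were of beta cell products. Insulin 2 (Ins2; chromosome 7, 142678656 to 142679726) read 7.20 and 7.14 at e13.5 and 10.78 and 10.73 at e14.5. The rise of 3.58 ± 0.064 (SE), or 11.97-fold (limma adjusted p = 1.52e-10), was the largest of any gene named here. Its probe set can bind related transcripts (suffix f), and Ins1 was not analysed here. A second Ins2 probe set (suffix r) read 6.50 at e13.5 and 6.88 at e14.5 and did not pass (0.39, adjusted p = 0.0602). The mean of both probe sets changed by 1.98. On chip A, 2 probe sets without a gene name were higher by 4.15 and 3.87. Further probe sets without a single gene symbol were higher by 3.23 on chip C and by 2.89 and 2.06 on chip A. These are given for the size of their rise, and no gene is assigned to them here. Islet amyloid polypeptide (Iapp), which beta cells release with insulin, read 6.96 and 7.004 at e13.5 and 8.55 and 8.49 at e14.5. It rose by 1.54 ± 0.064 (SE), or 2.91-fold (limma adjusted p = 1.48e-07).

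The Iapp promoter is shown because this hormone has a window, while none was given for Ins2. It lies at chr6:142298225-142298394 on the plus strand (RefSeq, GRCm38.p6, positions -200 to -31), and capitals mark TAATG, the core read by Pdx1 and other homeodomain factors, its reverse complement CATTA, and CATCTG, an E-box read by Neurod1 with its E protein partner. These letters were chosen after the values had been seen.
Iapp: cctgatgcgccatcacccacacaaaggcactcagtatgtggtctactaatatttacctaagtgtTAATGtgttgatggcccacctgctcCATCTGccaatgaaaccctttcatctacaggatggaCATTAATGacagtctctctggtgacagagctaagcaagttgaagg
TAATG or its complement began at positions -136, -75 and -72, the last 2 overlapping in CATTAATG, and CATCTG at position -111. TAATG lies in 23.9% of all windows, CATCTG in 14.4% and both in 4.16%. As above, the letters are a description only.

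The other hormones changed less or not detectably. Somatostatin (Sst) of delta cells rose by 0.71, from 5.76 and 6.02 to 6.60 on both arrays (limma adjusted p = 0.00257). Neuropeptide Y (Npy) differed by 0.52 (adjusted p = 0.00319), short of 1.5-fold. Ghrelin (Ghrl), Ppy, gastrin (Gast) and Pyy differed by -0.17 to 0.24, with adjusted p-values of 0.171 or more. Glucagon (Gcg), the alpha cell hormone, read 12.64 and 12.74 at e13.5 and 12.21 and 12.23 at e14.5. This difference of -0.47 ± 0.071 (SE) had an adjusted p of 0.00258 but was short of 1.5-fold, and the stages did not overlap. The other Gcg probe set, on chip A, went from 9.72 to 8.89 and fell by 0.83 (limma adjusted p = 0.000702), past 1.5-fold. The mean of both Gcg probe sets changed by -0.65, also past 1.5-fold. Gcg was the brightest probe set of chip C at e13.5, and Cpa1 took that place at e14.5.

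Few transcription factors of endocrine cells passed. Of 20 measured, none rose and 1 fell, with a median change of -0.01. Neurog3 read 7.77 and 7.75 at e13.5 and 7.89 and 8.02 at e14.5, which was not a called difference (0.19 ± 0.088 SE, limma adjusted p = 0.314). Its mean was highest at e14.5 among the 5 stages, after 6.49 at e12.5 and before 7.43 at e15.5, but its neighbour e13.5 did not differ from it by the test. Neurod1, Nkx2-2, Pax6, Pax4, Insm1 and Isl1 differed by -0.10 to 0.20, with adjusted p-values of 0.177 or more. Sox11, a factor of immature neuroendocrine and mesenchymal cells, fell by 0.86 (8.50 on both arrays to 7.63 and 7.66), and fell at least 2-fold on 2 other probe sets. Its relative Sox4 differed by -0.56 (adjusted p = 0.000554), short of 1.5-fold. None of 28 genes of the neuroendocrine secretory pathway passed, and Scgn differed most, by 0.49. Of 10 genes of beta cell glucose sensing, 6 differences were positive and 4 negative, with a median of 0.14. Cltrn (collectrin) fell by 0.70 and none rose. The glucose transporter Slc2a2 differed by -0.48, and the largest positive difference of the list was 0.47.

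Progenitor and duct factors fell in 2 of 23 and rose in none. Mycn fell by 0.79 (6.16 and 5.94 to 5.18 and 5.34) and the chromatin protein Hmga2 by 0.66 (8.68 and 8.79 to 8.06 and 8.09), both of which accompany growth of immature cells. Pdx1 read 5.92 and 5.98 at e13.5 and 6.197 and 6.23 at e14.5 (0.27, limma adjusted p = 0.0647). Sox9, which keeps the progenitor and duct state, read 7.57 and 7.52 at e13.5 and 7.47 and 7.40 at e14.5 (-0.11, adjusted p = 0.569). Foxa2, Hnf4a, Onecut1 and Hes1 differed by -0.20 to 0.12 and did not pass. In the list of epithelial structure, 2 of 31 rose, the mucin Muc1 by 0.72 and keratin 18 (Krt18) by 0.59, and none fell. There 26 of 31 differences were positive, against 8040 of 15964 over all genes. Of 55 genes of the cell cycle none passed 1.5-fold, and the median was 0.02.

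The 4 genes that fell at least 2-fold act in matrix, adhesion and signalling. Tgfbi, a secreted matrix protein induced by TGF-beta (chromosome 13, 56609586 to 56639359), read 8.84 and 8.78 at e13.5 and 7.01 and 7.18 at e14.5. It fell by 1.72 on the log2 scale (SE 0.072), or 3.28-fold, with a limma adjusted p of 1.48e-07. Itga8, the integrin chain that binds nephronectin (chromosome 2, 12106632 to 12301985), read 7.15 and 7.17 at e13.5 and 5.65 and 5.49 at e14.5, and fell by 1.59 (SE 0.079; 3.01-fold). Slitrk5, a transmembrane protein of neurons, read 8.29 and 8.20 at e13.5 and 7.09 and 7.18 at e14.5, and fell by 1.11. Rdh10, which oxidises retinol in the path to retinoic acid, read 9.96 and 9.84 at e13.5 and 8.83 and 8.88 at e14.5, and fell by 1.04. As in every 2-fold call, the stages did not overlap in any of the 4. The mean over all probe sets of the gene was less changed in each, at -0.86 for Tgfbi, -0.63 for Itga8, -0.91 for Slitrk5 and -0.65 for Rdh10, and so short of 2-fold. Without reaction 1 of e13.5, Rdh10 changed by -0.98.

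The mesenchyme list moved both ways. Of 39 genes, 4 fell and 2 rose, with a median of -0.04, and the mean level went from 6.93 and 6.90 at e13.5 to 6.82 and 6.83 at e14.5. Besides Tgfbi, the fallers were the transcription factors Tcf21 (-0.87; 7.92 and 7.82 to 7.04 and 6.97) and Hand2 (-0.75; 9.84 and 9.66 to 8.99 and 9.02), and the receptor Pdgfra (-0.76; 9.13 and 9.11 to 8.34 and 8.38). A further probe set of Pdgfra differed by 0.05 (adjusted p = 0.756) and one of Hand2 by -0.47, neither of which passed. The small leucine-rich proteoglycans decorin (Dcn; 8.56 and 8.66 to 9.42 and 9.30) and lumican (Lum; 6.67 and 6.55 to 7.28 and 7.32) rose by 0.75 and 0.69. The fibrillar collagens Col1a1, Col1a2 and Col3a1 differed by -0.04 to 0.19 and did not pass. In the list of basement membrane and integrins, the laminin chain Lama1 fell by 0.60 beside Itga8, while Itga6, an epithelial laminin receptor chain, rose by 0.76. None of 14 genes of smooth muscle and stellate cells and none of 8 of mesothelium passed.

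Signalling genes were lower in a few cases. In the retinoic acid and Hox list of 32, Hoxa5 fell by 0.62 and Hoxa3 by 0.59 beside Rdh10, and Aldh1a1, which makes retinoic acid from retinal, rose by 0.93 (6.33 and 6.12 to 7.10 and 7.21). The Wnt list of 38 had 2 fallers, the ligand Wnt5a (-0.81) and the secreted inhibitor Sfrp1 (-0.66). Further probe sets of Wnt5a differed by -0.90, -0.38 and -0.24, and only the first of these passed 1.5-fold. A second Sfrp1 probe set differed by -0.90 and passed. Gdf11, a TGF-beta family ligand, fell by 0.61 in its list of 39. The BMP receptor Bmpr2 fell by 1.41 (2.66-fold, limma adjusted p = 2.73e-06) on a probe set of chip A, from 6.91 to 5.50, while its brightest probe set differed by 0.03 (adjusted p = 0.899). No member of the Notch list (23 genes) or of the list of FGF and growth factor receptor kinases (36 genes) passed 1.5-fold, and Hey1, a Notch target, differed most in the first, by -0.35.

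Markers of other cell types moved over the same day. Of 25 genes of neurons, neural crest and Schwann cells, 3 fell (Gap43 by 0.82, Nefm by 0.71, with -0.55 on a further probe set, and Ncam1 by 0.65) and none rose, and the mean over the list went from 6.15 and 6.16 to 5.99 and 5.9999. Of 33 leukocyte genes, Tyrobp fell by 0.68 and S100a8 by 0.61, and the mean went from 5.55 and 5.57 to 5.38 and 5.40. In this list 26 differences were negative, against 7924 of 15964 over all genes. Of 28 endothelial genes, Vwf fell by 0.68 on 1 probe set and differed by 0.07 on its other (adjusted p = 0.709; mean of both -0.30), and the mean went from 6.57 and 6.60 to 6.49 and 6.47. The part of these cells in the falls of Tgfbi, Itga8, Slitrk5, Rdh10 and the mesenchyme genes was not tested. In the list of stomach, gut, liver, spleen and skeletal muscle none of 35 genes passed, and their mean stood at 4.93 and 4.96 at e13.5 and 4.97 and 4.94 at e14.5. Cym, a protease of the stomach that rose, was not in this list and is given below.

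Of 23 red cell genes, 2 rose and 2 fell. The embryonic globins Hba-x (10.82 and 10.77 to 10.05 and 10.15) and Hbb-y (12.55 on both arrays to 11.88 and 11.92) fell by 0.69 and 0.65, and a second Hbb-y probe set by 1.04. The adult globin Hbb-b2 rose by 0.62 (10.12 and 10.15 to 10.79 and 10.72), and Alas2, the first enzyme of haem synthesis in red cells, by 0.93 (7.38 and 7.31 to 8.30 and 8.26). The mean over the 23 genes went from 6.69 and 6.66 to 6.74 and 6.73. The lists of glycolysis, cholesterol synthesis, the respiratory chain, cytosolic heat shock and immediate early genes, and splicing factors had no member past 1.5-fold, with medians of -0.08 to 0.08. In the list of 26 imprinted and oncofetal growth genes, Dcn rose and Mycn and Hmga2 fell, as given above.

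Of the 24 genes that rose 2-fold, 11 were in no list of acinar or islet genes. Cym, chymosin, the milk-clotting protease of the stomach, read 6.51 and 6.39 at e13.5 and 7.80 and 7.95 at e14.5, and rose by 1.42 ± 0.10 (SE; limma adjusted p = 9.67e-07). Agtr2, the angiotensin II type 2 receptor of fetal tissues, read 5.08 and 5.23 at e13.5 and 6.52 and 6.45 at e14.5, a rise of 1.33. Tmem97, a sterol-related membrane protein, rose by 1.22 (8.42 and 8.46 to 9.70 and 9.62), and the helicase Dhx34 by 1.22 (6.56 and 6.65 to 7.74 and 7.91). Gamma-glutamyl hydrolase (Ggh) rose by 1.19, complement factor I (Cfi) by 1.17, the transcription elongation factor Ell2 by 1.07, the glutathione transferase Gstm1 by 1.07, the corticosteroid-binding globulin Serpina6 by 1.04 and the metallothionein Mt1 by 1.01. AI506816 rose by 1.21 on a probe set of suffix r, while its other probe set fell by 0.80, so its direction is not settled. Averaged over all probe sets of the gene, Agtr2 (0.69), Tmem97 (0.63), Ell2 (0.31), Gstm1 (0.40), Serpina6 (0.80) and Mt1 (0.58) stayed below 2-fold. Cela3b, Ctrl, Ell2, Mt1 and Serpina6 each dropped below 2-fold when 1 of the 4 arrays was left out, with values of 0.91 to 0.99. Cela1, Prss2, Cela3b, Ctrl, Ggh, Cfi, Ell2, Gstm1, Serpina6 and Mt1, and list members below the 4 largest, are named with their values seen.

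To ask whether a change was larger on this day than on the others, the step from e13.5 to e14.5 was set against the mean of the other 3 daily steps. The arrays of e13.5 and e14.5 also enter the neighbouring steps, so the steps are not independent. The day had 48 probe sets past 2-fold, against 47 from e12.5 to e13.5, 134 from e14.5 to e15.5 and 121 from e15.5 to e16.5. At 1.5-fold it had the fewest, 196, against 301, 577 and 861 in the same order. With no fold minimum it again had the fewest, 1160, against 4122, 3922 and 7538. The step exceeded the mean of the others by at least 2-fold in 13 probe sets (0.0354%) and fell short of it in 28 (0.0763%).

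**Figure D4:**
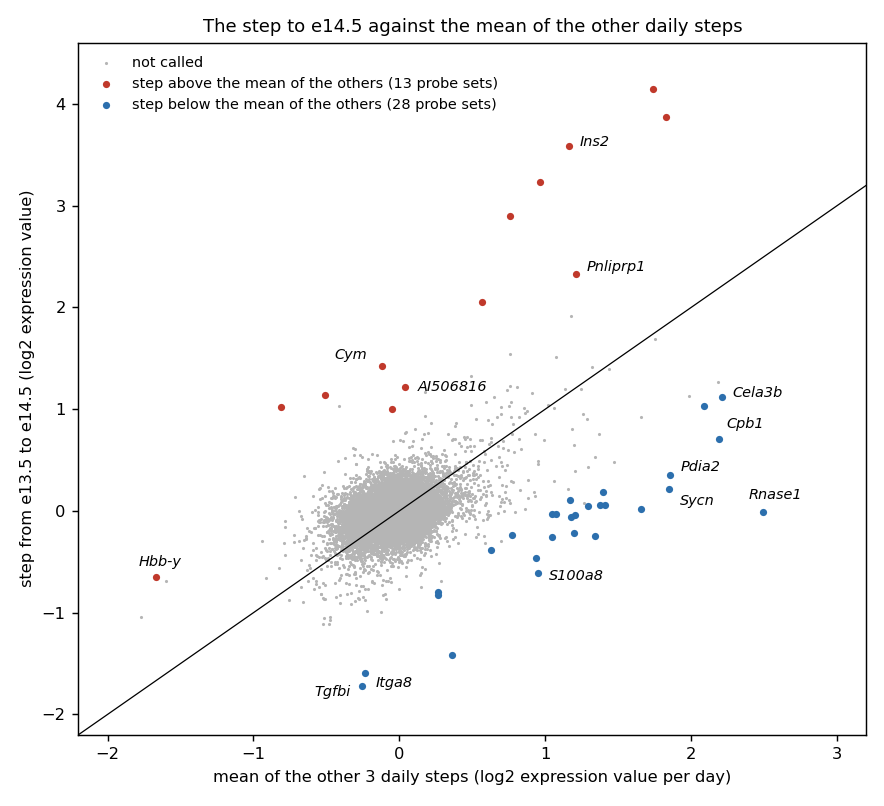
Each point is a probe set, with the mean of the other 3 daily log2 steps on the horizontal axis and the step from e13.5 to e14.5 on the vertical axis; the line marks equal steps. The 13 probe sets called above the line (red) include Ins2, at a difference of 2.42, and the 28 called below it (blue) include Rnase1, at -2.50.

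Ins2 rose by 1.89 to e13.5, by 3.58 to e14.5, by 1.13 to e15.5 and by 0.46 to e16.5, so its step to e14.5 was 2.42 ± 0.087 (SE) above the mean of the others (limma adjusted p = 3.89e-07). The step of Iapp was 0.78 above the mean of its others (adjusted p = 0.00137). Pnliprp1 was 1.12 above, with a step of 2.05 on the day before, and Ctrb1 0.74 above, although its own largest step, 2.63, was the one to e13.5. Cym was 1.55 above: it was highest at e14.5 and then changed by -0.39 and -0.98. The genes that rose or fell 2-fold were chosen by this same step, which favours a large step difference, so their differences are given as a description. Of the 24 that rose, 11 had a larger and 2 a smaller step than the mean of the others at an adjusted p under 0.05. Cel, Clps, Cela1, Ctrl and Serpini2 differed from their other steps by -0.06 to 0.09, with adjusted p-values of 0.736 or more. The steps of the 4 genes that fell lay below the mean of their other steps, by 1.46 for Tgfbi, 1.35 for Itga8, 0.62 for Slitrk5 and 0.57 for Rdh10. Tgfbi did not differ between e12.5 and e13.5 (0.21, adjusted p = 0.0839), then fell by 1.72 and by 1.17 on the next day.

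Of the 5 named genes with the lowest step difference, 4 are acinar genes that rose more on the later days. The pancreatic ribonuclease Rnase1 read 2.94 and 3.24 at e13.5 and 3.06 and 3.11 at e14.5, which overlap, and then rose by 4.48 and 2.86 on the 2 following days. The granule protein Sycn rose by 1.69 and 3.74, the pancreatic disulfide isomerase Pdia2 by 2.41 and 3.01, and Cpb1 by 3.32 and 2.70 after e14.5. Their steps to e14.5 were 0.22, 0.36 and 0.71. Cela3b and Prss2, which did rise 2-fold on this day, were still 1.09 and 0.86 below the mean of their other steps. S100a8, a neutrophil protein, had its rise of 2.84 on the last day and was 1.56 below. Hbb-y was 1.02 above the mean of its other steps: it fell by 0.60 on the day before, by 0.65 on this day and by 1.87 and 2.52 on the 2 that followed.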

How the data were processed

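Expression values were deposited by the authors as log2 values, 1 table per chip. The submitters' processing notes name RMA, a method that subtracts background, equalises the distributions of the arrays and combines the probes of a probe set, so a change in total RNA per cell is not kept. Software and version are not given in the sources used here, and the log base was inferred from the range of values. Of 36701 probe sets, 29131 had 1 gene symbol in the platform annotation, 724 several and 6846 none. Coordinates and promoters are those of RefSeq on GRCm38.p6. A search for the ER stress element was planned for endoplasmic reticulum genes called at 2-fold, and there were none.

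Each chip's 10 arrays were fitted together by stage (5 residual degrees of freedom) in limma 3.58.1 under R 4.3.3, and the contrasts e14.5 minus e13.5, and that step minus the mean of the other 3, were tested with empirical Bayes moderation. P-values were adjusted over the 3 chips together by the Benjamini-Hochberg method. The members, the 34 gene lists and the rule for named genes were chosen with earlier results of these data known. The rule takes the 12 largest rises and falls among genes called at 2-fold, up to 4 called members per list (or the largest change), the 5 largest calls of the step difference in each direction, and 7 landmark genes. On data simulated from chip A (12422 probe sets, 50 changed per fold size), the 2-fold rule recovered 50% of 2-fold and 100% of 3-fold changes, with 0 false calls among 12222. The simulated noise was that between labelling reactions only, with a common SD for all probe sets, and spread between pools was left out. The 0 false calls therefore give no false call rate for the real data. Recovery near 50% for changes at the cutoff follows from the cutoff. Alternatives covered scaling, filters, the fold minimum, the prior variance, the adjustment, the samples fitted, the replicate number as a block, leaving out each array of the 2 stages, and averaging the probe sets of a gene. Reaction numbers did not pair the stages: reaction differences at e13.5 and e14.5 correlated at -0.18, -0.034 and 0.086 on chips A, B and C.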

Additional observations from a re-analysis of the deposited data

Results flagged for a closer look

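The step from e13.5 to e14.5 differed from the mean of the other 3 daily steps, by limma with an adjusted p under 0.05 and at least 2-fold, in 13 probe sets above and 28 below. Among named genes it was above for Ins2 (2.42), Cym (1.55), AI506816 (1.17), Pnliprp1 (1.12) and Hbb-y (1.02), the last of which fell by less than the mean of its other steps. It was below for the acinar genes Rnase1 (-2.50), Sycn (-1.63), Pdia2 (-1.50), Cpb1 (-1.48) and Cela3b (-1.09). Of these, Cpb1 and Cela3b rose on this day too. It was also below for the neutrophil gene S100a8 (-1.56), and for Tgfbi (-1.46) and Itga8 (-1.35), which fell by more than the mean of their other steps. Ins2, Cym, AI506816, Pnliprp1, Cela3b, Tgfbi and Itga8 had also been chosen by their step to e14.5, which enters this difference. AI506816 moved in opposite directions on its 2 probe sets. Groups of 2 arrays are too small for a test of single arrays that stand apart.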

How the results depend on the processing

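The counts of probe sets, 39 higher and 9 lower, changed by over 1.5 times only with the fold minimum: with 1.5-fold 106 were higher and 90 lower, and with none 494 and 666. For the step difference, 86 and 94 passed at 1.5-fold and 201 and 158 with no minimum, against 13 and 28, and 16 were lower under limma's test against 1.5-fold (treat). With the replicate block, 39 were higher and 9 lower, and the step difference counted 13 and 29; the block changed no call of a count. Leaving out each array of e13.5 and e14.5 in turn (those of the other stages were kept) gave 33 to 39 higher, 9 to 11 lower, and 13 to 14 and 24 to 29 for the step difference. The 4 arrays of both stages alone could not give the step difference. All 28 genes called at 2-fold kept their direction under every alternative run, 22 kept the call without each of those arrays in turn, and 15 kept it throughout. Averaging probe sets cannot change the estimate of a gene with 1 probe set, and of the 15 only Ins2 and Pnliprp1 had more. Of the 28 genes, 13 had over 1 probe set. Averaging the probe sets of a gene left no member of the mesenchyme, basement membrane or retinoic acid list lower at 2-fold. With 1 pool per stage no spread between embryos can be given, and 15 probe sets lay within 0.1 log2 units above the 2-fold minimum and 15 within 0.1 below.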

Other observations

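Of the 128 genes that passed 1.5-fold, 67 were in no list, 36 higher and 31 lower at e14.5. Some of them are named here, chosen after their values were seen, and they stand for no group. The metallothioneins Mt1 and Mt2 rose by 1.01 and 0.89, from means of 9.57 and 10.20 to 10.58 and 11.09. The glutathione transferases Gstm1 and Gstm3 rose by 1.07 and 0.70, on probe sets that can bind related transcripts (suffix f). The secreted ribonucleases Ang and Rnase4 rose by 0.76 and 0.64; both genes begin at the same annotated position of chromosome 14, so their transcripts may not be told apart. Reep5, a protein that shapes the endoplasmic reticulum, rose by 0.95 (9.51 ± 0.066 to 10.46 ± 0.043, SD, n = 2 labelling reactions), and Lox, which crosslinks collagen, by 0.80 (4.89 to 5.69). The protease Anpep, the aldehyde dehydrogenase Aldh1b1 and the monoamine enzyme Ddc rose by 0.70, 0.70 and 0.69, while further probe sets of Ddc and Gstm3 differed by -0.13 and 0.20 and did not pass.

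Among the unlisted genes that fell were the elastic fibre protein Emilin1 by 0.92, the glypican Gpc6 by 0.76, the calcium-binding matrix protein Smoc2 by 0.72 (-0.35 on a further probe set), the guidance ligand Slit3 by 0.72 and N-cadherin (Cdh2) by 0.71. Tac2, a tachykinin precursor, fell by 0.996, just short of 2-fold (7.002 ± 0.27 to 6.01 ± 0.012, SD, n = 2 labelling reactions), and the iron exporter Slc40a1 by 0.86. The serpins Serpina1b, Serpina1e and Serpina1c fell by 0.85, 0.73 and 0.63 on probe sets of suffix f, and a further Serpina1c probe set without that suffix fell by 0.85. They are closely related copies, so which of them changed is uncertain. Serpina6 on the same chromosome rose by 1.04 over the same day. Apoe fell by 0.63, from 9.91 to 9.28, while a further probe set differed by 0.13 (adjusted p = 0.42).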
